A study of Homo sapiens with 6 samples.

Results

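Among the places where MYC was called in ONS76 medulloblastoma cells, 1792 were weak in every library and were nevertheless called in every library. They were chosen by the deposited values. Overlapping peaks of the 3 MYC libraries on chromosomes 1 to 22, sharing 1 bp or more, were joined and gave 27399 places. A place was kept when all 3 libraries had a peak there and the highest −log10 p of any of its peaks was below 15. The −log10 p is the strength that the peak caller MACS2 gives a summit, the tallest point of a peak, against the local background. These weak, fully shared places were 6.54% of all places and 14.5% of the 12368 places with a peak in all 3 libraries. The study mapped MYC by ChIP-seq, in which cross-linked and sheared chromatin is pulled down with an antibody and the recovered DNA is read. ONS76 is an established human medulloblastoma line, and by the labels it carried an inducible SOX2 construct, which the MYC group and the IgG group shared. The labels give 3 libraries with the MYC antibody Y69 and 3 with normal IgG, a non-specific antibody. The values below come from the peak lists of the MYC libraries. Peaks of the IgG group were not analysed here. Per the study's methods, immunoprecipitations from a single batch of chromatin were pooled, and the cells were not mapped with SOX2 raised. Whether the replicates are separate cultures is not stated, so the SD over them, and any p, measures only the spread between these libraries, which may be technical.

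MYC is a transcription factor of the basic helix-loop-helix leucine zipper class. It pairs with MAX and binds E-box motifs, most often at the promoters of genes that are already active, and it is known to occupy a large number of sites at low level beside a smaller number of strongly bound ones. A peak caller separates such low occupancy from the background read by read, so a weak peak is the kind of call that depends most on how deeply a library was sequenced. Agreement between libraries is therefore the usual filter for it.

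The 3 lists held 24529, 16612 and 17098 autosomal peaks in replicates 1, 2 and 3. Peaks with a −log10 p below 15 made up 49.5%, 55.6% and 56.9% of them. The lists give no read totals, so depth is unknown. The genome-wide background, the lowest background recovered in a list, was 7.79, 5.84 and 4.76 in replicates 1, 2 and 3. It was highest in replicate 1. How it follows depth was not tested, since it also carries the fragment length and the scaling of a control that is not stated. Positions are in hg19, counted from 1. The annotation and the genome used here are of another build, so places are given by position, without genes, gene parts or sequence.

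Weak places shared by all libraries were the minority of weak places. Of 14553 places whose highest −log10 p stayed below 15, 9562 had peaks from 1 replicate, 3199 from exactly 2 and 1792 from all 3, a share of 12.3%. Over all places, whatever their strength, the share found in all 3 was 45.1%. The share grew with strength inside the weak range. It was 3 of 1352 places (0.222%) between a highest −log10 p of 5 and 6, 148 of 1309 (11.3%) between 9 and 10, and 390 of 1021 (38.2%) between 14 and 15. Between 14 and 15 the fully shared places outnumbered both those in exactly 2 replicates (325) and those in 1 (306). Strength and sharing are tied by construction here, since a place with more peaks takes its highest value from more of them. These counts are a description.

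**Figure D1:**
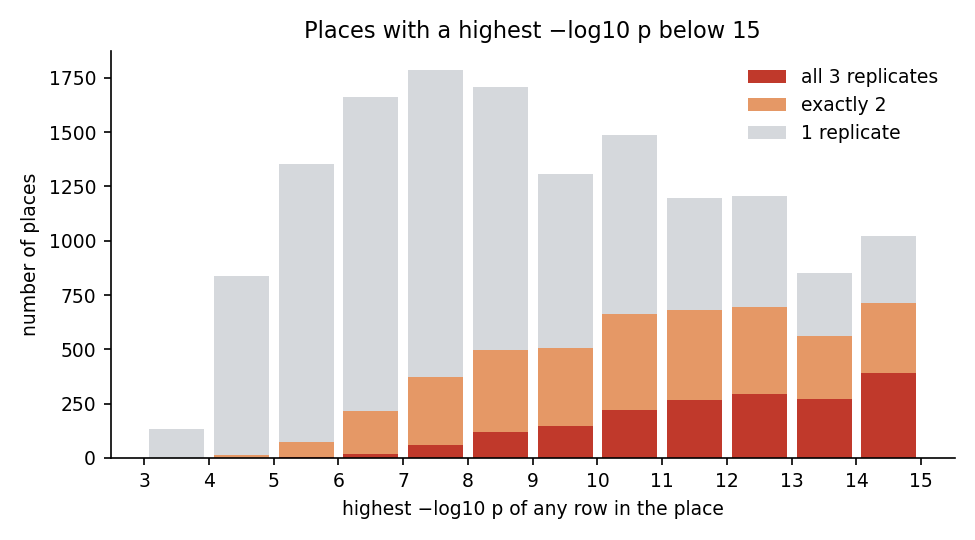
Number of places (y axis) by the highest −log10 p of any peak in the place (x axis, bins of 1), split by the number of replicates with a peak. The fully shared part is 3 places in the bin from 5 to 6 and 390 in the bin from 14 to 15.

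The 1792 places were enriched to a similar level in each library. Median fold enrichment, the deposited ratio of summit fragments to local background with 1 added to both, was 3.46, 3.53 and 3.82 in replicates 1, 2 and 3 (mean 3.602 ± 0.193, SD, n = 3). Their lowest and highest fold were 1.82 and 4.44 in replicate 1, 2.07 and 4.97 in replicate 2, and 2.12 and 5.38 in replicate 3. The median summit held 37 fragments in replicate 1, where the local background was 9.64. It held 27 over 6.12 in replicate 2 and 24 over 5.03 in replicate 3. The median excess over background was therefore 27.2, 20.2 and 18.4 fragments. For comparison, the fully shared places with a highest −log10 p from 15 to below 50 (7381 places) had a median fold of 5.19 ± 0.355, and those at 50 or more (3195 places) of 9.75 ± 0.859 (SD, n = 3). Weak places found in exactly 2 replicates had a median fold of 3.46 ± 0.165 (SD, n = 3), lower than the fully shared ones in 3 of 3 replicates by 0.137 ± 0.0336. Fold was part of what chose the places, so no test was run on it.

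The libraries did not order the weak places alike. Replicate 1 gave the highest −log10 p at 1026 of the 1792 places (57.3%), while replicate 3 gave the highest fold at 928 (51.8%). In the fully shared places from 15 to below 50, replicate 1 was highest in −log10 p at 85.7% and in fold at 51.9%. The median gap between the strongest and the weakest −log10 p of a place was 4.22, and the fold of a place varied between the 3 replicates with a median coefficient of variation of 12.7%. Across the 1792 places, the rank correlation of fold (Spearman's rho, n = 1792) was 0.243 for replicates 1 and 2, 0.261 for 1 and 3 and 0.326 for 2 and 3, and Pearson's r of log2 fold was 0.244, 0.280 and 0.330. The choice by strength narrows the range of fold, and places are not independent replicates, so these are descriptions. With the backgrounds of the 3 lists, a −log10 p below 15 also limits fold differently. The highest fold reached was 4.44, 4.97 and 5.38 in replicates 1, 2 and 3. Which library had the highest fold at a weak place is therefore not independent of the choice. The weakest peak of a place had a median q-value of 2.52e-05. It was at or below 0.01 in 1727 places (96.4%) and at or below 0.001 in 1475 (82.3%).

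**Figure D2:**
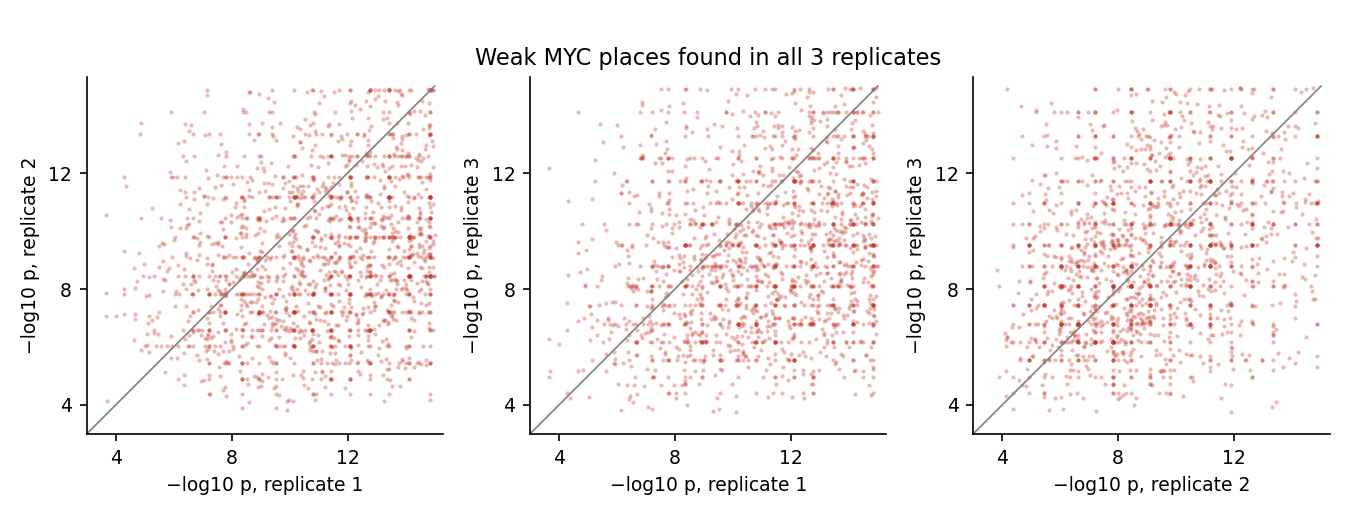
−log10 p of the strongest peak in each replicate at the 1792 weak, fully shared places, for the 3 pairs of replicates, with the line of equal values. More points lie below the line where replicate 1 is on the x axis, since replicate 1 was highest at 57.3% of the places.

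At the upper limit, the strongest of these places was on chromosome 5 from 148960799 to 148961425. Its −log10 p was 14.9986, 9.88 and 10.5 in replicates 1, 2 and 3, and its fold was 4.16, 3.89 and 4.20. The next was on chromosome 2 from 157188996 to 157189836, with folds of 4.31, 3.65 and 5.21. The one after it, at 197517769 to 197518589 of chromosome 3, had folds of 4.31, 3.65 and 3.995. Just outside the limit lay a place on chromosome 17 from 78388723 to 78389424, where replicate 3 and not replicate 1 was the strongest. It had folds of 3.18, 3.46 and 4.90. The next 2 outside, on chromosome 8 from 143750792 to 143751727 and from 80677563 to 80678053, had folds of 3.76, 4.49 and 4.95, and of 3.43, 4.69 and 3.88, with replicate 2 the strongest in both. Fold on both sides of the limit overlapped.

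At the other end, the weakest place was on chromosome 1 from 32230259 to 32230805, with −log10 p of 3.69, 4.14 and 5.18 and folds of 2.08, 2.29 and 2.69. It rested on 24, 22 and 21 fragments at a background of 1.42, 1.55 and 1.51 times the genome-wide level. The place on chromosome 9 from 100934919 to 100935356 had folds of 2.57, 2.92 and 3.13 on 23, 21 and 17 fragments. The place on chromosome 8 from 41649564 to 41650589 had folds of 2.37, 2.79 and 3.06 on 34, 22 and 18 fragments. In all 3 of these places the fold was lowest in replicate 1 and highest in replicate 3. The same −log10 p stands for a lower fold where the background is higher, and the genome-wide background was highest in replicate 1. The −log10 p of these places also differed between replicates, and why fold took this order was not tested. Below a highest −log10 p of 10 lay 350 of the 1792 places (19.5%), with a median fold of 3.18 ± 0.194 against 3.75 ± 0.205 for the other 1442 (SD, n = 3).

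Whether weak places recur can be asked of a library that took no part in choosing them. Places were merged from 2 replicates, kept where both had a peak and every −log10 p was below 15, and looked up in the third. Called in replicate 1 were 4269 of 4529 such places (94.3%, 95% Wilson interval 93.5 to 94.9). Called in replicate 2 were 1943 of 3548 (54.8%, 53.1 to 56.4) and in replicate 3, 1935 of 3269 (59.2%, 57.5 to 60.9). The intervals cover counting error only, and fragments read without molecular identifiers are not independent molecules. The background for these shares, over all places found in both other replicates, was 97.7% for replicate 1, 83.7% for replicate 2 and 85.7% for replicate 3. Places at 15 to below 50 in both other replicates were called in 99.8%, 97.1% and 97.0%. The mean over the 3 held-out libraries was 69.4% ± 21.6 for the weak places and 98.0% ± 1.63 for the latter (SD, n = 3). The weak places recurred less often in 3 of 3 replicates, and the exact two-sided sign test over 3 gave p = 0.25, the smallest it can give. These groups were split by −log10 p, on which a call also depends, so their order was largely set by the split. The 3 rounds also share libraries. The test therefore adds nothing to the shares themselves. Places weak in replicates 2 and 3 were thus mostly called in replicate 1, while many of those weak in replicate 1 and in 1 other library were missing from the remaining list.

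The strength in the held-out library also depended on which one it was. Of the places called in replicate 1, 2492 (58.4%) reached a −log10 p of 15 or more there, so most places that were weak in replicates 2 and 3 were not weak in replicate 1. Of those called in replicates 2 and 3, 148 in each (7.62% and 7.65%) did so. When called, the median fold in replicates 1, 2 and 3 was 4.32, 3.64 and 3.88. The share called rose with strength for each held-out library. With the highest −log10 p of the other 2 below 6 it was 83.3% (54 places), 27.3% (55 places) and 12.5% (40 places) in replicates 1, 2 and 3. From 12 to below 15 it was 96.7%, 64.7% and 69.0%.

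**Figure D3:**
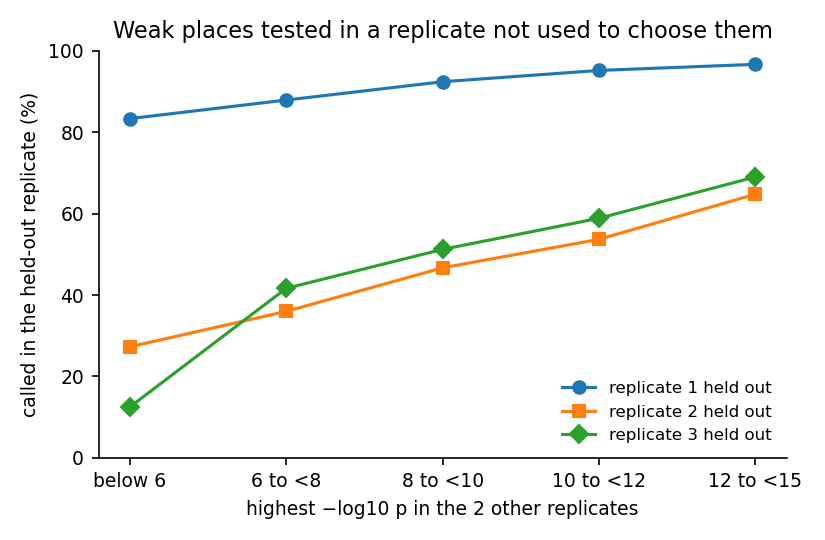
Share of weak places called in a held-out replicate (y axis, percent) by the highest −log10 p in the other 2 replicates (x axis). Replicate 1 lies between 83.3% and 96.7%, and replicates 2 and 3 between 12.5% and 69.0%.

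The weak, fully shared places were narrow, with the width depending on the library. The median peak was 525.5, 367 and 378 bp wide in replicates 1, 2 and 3 (mean 423.5 ± 88.5 bp, SD, n = 3). Replicate 1 had the widest peak at 1181 of the 1792 places (65.9%). Peaks of weak places found in exactly 2 replicates were narrower in 3 of 3 replicates (mean of medians 336 ± 51.4 bp), and peaks of fully shared places from 15 to below 50 were wider in 3 of 3 (560 ± 123 bp, SD, n = 3). Width and −log10 p come from the same pile of fragments, so this order was not tested. The smallest peaks, 252 bp, 233 bp and 229 bp, were as narrow as any autosomal peak of their list. Merged over the replicates, the 1792 places had a median width of 616 bp and covered 1216 kb. At 68 places (3.79%) a replicate had more than 1 peak, against 7.60% of the fully shared places from 15 to below 50.

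The narrowest merged place was on chromosome 1 from 159851782 to 159852052, where peaks of 260 bp, 236 bp and 246 bp had their summits within 29 bp. The next narrowest, at 19004800 to 19005073 of chromosome 3 and at 3024044 to 3024324 of chromosome 6, had mean folds of 4.04 ± 0.273 and 4.0001 ± 0.305 (SD, n = 3). The widest, on chromosome 9 from 71735656 to 71737922, held 5 peaks. The strongest was 2187 bp wide in replicate 3, and 793 bp and 728 bp in replicates 1 and 2, and their summits spread over 1206 bp. The place on chromosome 8 from 12611369 to 12613579 was a chain of 6 peaks. The third widest, on chromosome 2 from 172966291 to 172968455, had a peak of 2165 bp in replicate 1 and of 632 bp and 776 bp in the others, and yet its 3 summits fell within 2 bp. Of these places, the last had a single peak in each library, the longest of them spanning the whole place. The other wide places held more than 1 peak in at least 1 library.

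The position of the summit was much less fixed at the weak places than at stronger ones. The 3 summits of a place lay within a median of 118 bp (quartiles 61 and 265 bp), against 64 bp at fully shared places from 15 to below 50 and 34 bp at 50 or more. The spread was at most 50 bp at 343 of the 1792 places (19.1%) and at most 100 bp at 803 (44.8%). It was over 200 bp at 599 (33.4%) and over 400 bp at 222 (12.4%). In the places from 15 to below 50, 16.9% were over 200 bp and 8.03% over 400 bp, and at 50 or more the shares were 6.20% and 3.63%. No test was run on this order, because the summit is read from the fragments that the choice used. Between pairs of replicates the median distance was 64 bp (1 and 2), 66 bp (1 and 3) and 68 bp (2 and 3), so no library stood apart. At weak places found in exactly 2 replicates the same pairs lay 54 bp, 56 bp and 38 bp apart, closer in 3 of 3 pairs. Those places were also narrower.

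The peaks of a place overlapped in part. A stretch common to all 3 strongest peaks existed at 1731 places (96.6%), with a median length of 270 bp, and was missing at 61, which were joined through a chain of overlaps. All 3 summits fell inside the common stretch at 1248 places (69.6%), against 93.4% of the places from 15 to below 50 and 99.2% at 50 or more. Where they did, the median spread was 83 bp, against 59 bp and 33 bp in those stronger groups. Where they did not it was 322 bp, but this split uses the summit positions themselves, so a larger spread there follows from it. By merged width, spread was 70 bp at the 544 places under 500 bp, 151 bp at the 1020 from 500 to under 1000 bp and 416.5 bp at the 228 of 1000 bp or more.

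The tightest summits were at the wide place on chromosome 2 named above, at 6245587 to 6246622 of chromosome 10 and at 32366458 to 32367082 of chromosome 20, each within 2 bp. The place on chromosome 10 had folds of 4.21, 4.69 and 4.52 and ended 278 bp from a strong place. The loosest was the chain on chromosome 8, with a spread of 1751 bp. On chromosome 12 from 27485206 to 27486722, the summits of replicates 1 and 3 were at 27486598 and 27486601 and that of replicate 2 was at 27485310. On chromosome 5 from 10551312 to 10552970, replicates 1 and 2 had summits at 10552766 and 10552748 and replicate 3 at 10551477. Both of these places held 4 peaks, and only the strongest of each library is compared. In both, the strongest summits of a pair of libraries lay close together, and that of the other library lay elsewhere in the place.

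**Figure D4:**
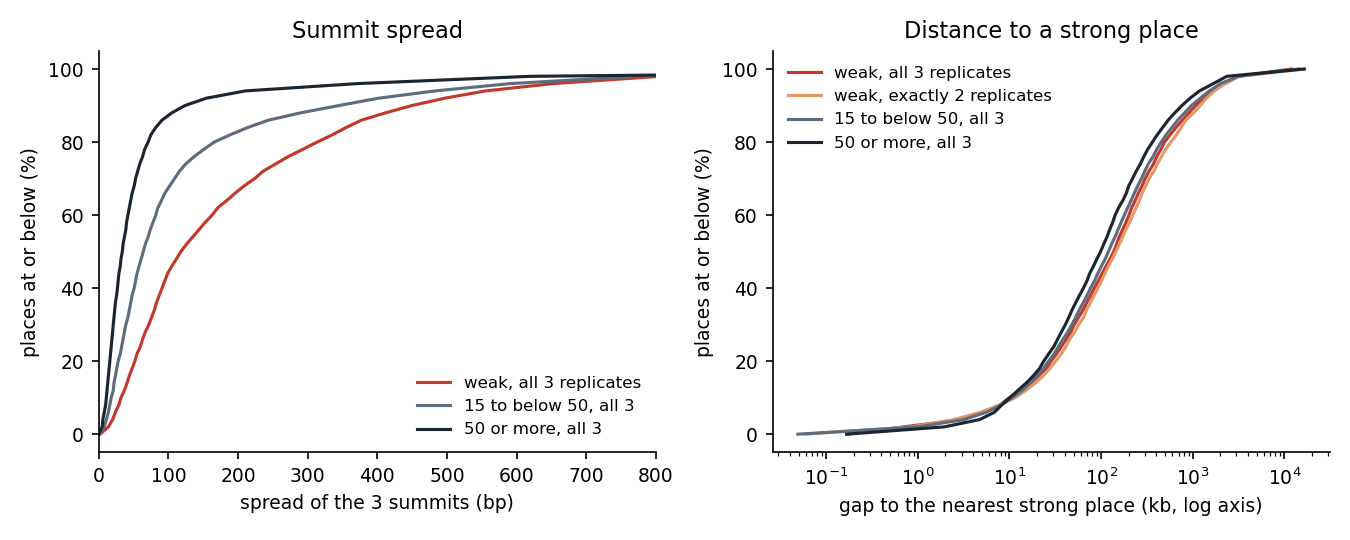
Left, percent of places (y axis) with a spread of the 3 summits at or below the value on the x axis (bp, drawn to 800). Right, percent of places with a gap to the nearest strong place at or below the value on the x axis (kb, log axis). The curve of the weak, fully shared places lies to the right of both stronger groups for summit spread, with a median of 118 bp. The distance curves lie close together, with medians from 98.6 to 145 kb.

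The local background under the weak places was close to that under other places. Relative background, the recovered background at a summit divided by the genome-wide level of its list, had a median of 1.24, 1.05 and 1.06 in replicates 1, 2 and 3 (mean 1.11 ± 0.107, SD, n = 3). It was at the genome-wide level, to the rounding of the files, at 23.9%, 41.7% and 40.1% of the 1792 places. The shares were 27.8%, 38.9% and 43.6% for weak places in exactly 2 replicates, and 27.5%, 43.3% and 40.4% for fully shared places from 15 to below 50. Against weak places found in exactly 2 replicates (1.10 ± 0.0759) the relative background of the 1792 places was higher in 2 of 3 replicates, with a mean difference of 0.0191 ± 0.0342. Against the fully shared places from 15 to below 50 (1.09 ± 0.0803) it was higher in 3 of 3, by 0.0243 ± 0.0273. Both differences were within their SD. With a replicate left out, the comparison changes to weak places in both remaining libraries against those in only 1. That difference was −0.0239 without replicate 1, −0.00482 without replicate 2 and 0.000317 without replicate 3. Background enters the −log10 p that chose the places and is therefore not independent of the choice, so no p is given. Across the 1792 places its rank correlation was 0.666 for replicates 1 and 2, 0.685 for 1 and 3 and 0.720 for 2 and 3, above that of fold in each pair. Which control library gave each background is not stated, and a shared one would tie these values.

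By chromosome, the background under the weak places was highest on chromosome 20, with medians of 2.21, 1.96 and 1.97 over its 75 places (mean 2.05 ± 0.143, SD, n = 3). Median fold there was 2.77, 2.997 and 3.29, the lowest of the 22 chromosomes in each replicate. Chromosome 7 followed with a background of 1.52 ± 0.0780 and a fold of 3.38 ± 0.254 (123 places), and chromosome 17 with 1.37 ± 0.107 and 3.49 ± 0.173 (135 places). On chromosomes 4, 10, 12, 13, 14, 15 and 21 the median background equalled the genome-wide level in all 3 replicates, and fold, as the mean of the 3 medians, lay between 3.77 and 3.96. Fold has the background as its denominator, so both values move together.

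**Figure D5:**
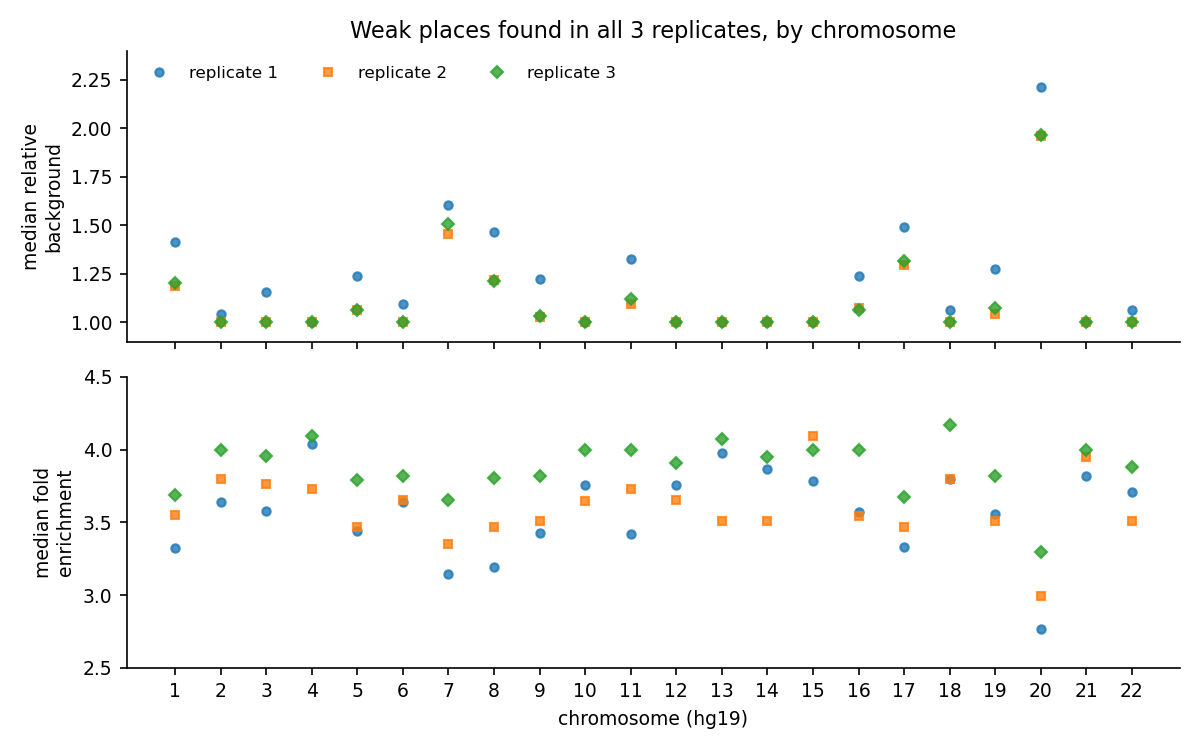
Median relative background (top, ratio) and median fold enrichment (bottom, ratio) of the weak, fully shared places on each chromosome, 1 point per replicate. Chromosome 20 has the highest background, 1.96 to 2.21, and the lowest fold, 2.77 to 3.29. The vertical axes do not start at 0.

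The number of weak, fully shared places followed the number of fully shared places. Chromosome 1 held most of them (214, 11.9%), followed by chromosome 17 (135), chromosome 7 (123) and chromosome 2 (121). As a share of the fully shared places of the same chromosome they ranged from 11.5% on chromosome 12 to 19.4% on chromosome 4, beside 14.5% over all. Chromosome 20, with the highest background, was at 12.3%.

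A background of at least 2 times the genome-wide level was found at 7.03%, 2.46% and 2.79% of the 1792 places in replicates 1, 2 and 3. The shares were 5.79%, 2.17% and 2.22% at fully shared places from 15 to below 50, and 6.23%, 2.25% and 2.47% at 50 or more. In all 3 replicates it was found at 23 of the 1792 places (1.28%), 19 of them on chromosome 20. The share in all 3, and its split by chromosome, is not given here for other places. At the 23 places median fold was 2.60, 2.78 and 2.82, on 57, 42 and 36 fragments. At the 343 places (19.1%) whose background equalled that level in all 3, the median fold was 3.98, 3.65 and 3.995 on 34, 24 and 22 fragments. The highest backgrounds by the lowest of the 3 replicates were not on chromosome 20. On chromosome 1 from 149223335 to 149224212 the background was 4.33, 3.51 and 4.17 times the genome-wide level, and 67, 50 and 45 fragments gave folds of only 1.96, 2.37 and 2.21. On chromosome 1 from 145092224 to 145092813 it was 3.89, 3.25 and 4.29, with folds of 2.36, 2.85 and 2.29. On chromosome 17 from 21314093 to 21314634 it was 2.73, 3.20 and 3.38, with folds of 2.83, 2.54 and 2.399. These places were weak in fold and not in fragments, whose medians over all 1792 places were 37, 27 and 24.

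The last comparison asked whether the weak places sit beside strong ones, taken as places with a peak of −log10 p of 50 or more (3196 places). Position took no part in the choice beyond the joining of overlapping peaks. A weak peak that overlapped a strong one was joined to it and could not be kept. The median gap from edge to edge was 137 kb (quartiles 39.8 and 390 kb). It was 145 kb for weak places found in exactly 2 replicates, 185 kb for those in 1, and 120 kb for fully shared places from 15 to below 50. From one strong place to the next it was 98.6 kb. Within 1 kb of a strong place lay 45 of the 1792 places (2.51%), within 5 kb 102 (5.69%), within 10 kb 180 (10.0%) and within 100 kb 782 (43.6%). For weak places in exactly 2 replicates the shares were 2.16%, 6.16%, 9.28% and 41.7%, and for the places from 15 to below 50 they were 2.01%, 5.55%, 9.42% and 45.9%. Most of the weak places that were kept were thus not on the flank of a strong one.

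Measured within each library, from the summit to the nearest summit of 50 or more in the same list, the median distance was 139, 370 and 372 kb in replicates 1, 2 and 3. For weak places in exactly 2 replicates it was 151, 408 and 418 kb, farther in 3 of 3 replicates, with a mean difference of 32.5 ± 18.2 kb (SD, n = 3; exact two-sided sign test, p = 0.25, the smallest possible). For the places from 15 to below 50 it was 123, 347 and 361 kb, nearer in 3 of 3 by 16.7 ± 5.98 kb (SD, n = 3; exact two-sided sign test, p = 0.25). The 1792 places, and those from 15 to below 50, were the same in each list. The 3 differences are thus not independent, and neither sign test can decide whether the order holds. Without replicate 1 the edge-to-edge median rose from 137246 to 322659 bp. Replicate 1 had the highest −log10 p at 3107 of the 3195 fully shared strong places (97.2%). Leaving it out therefore redraws the strong places, and the weak places then numbered 4529. The distances within each list likewise depend on which summits reach 50 there. The 180 places within 10 kb had a median fold of 3.54 ± 0.239 and a background of 1.21 ± 0.143, against 3.61 ± 0.183 and 1.11 ± 0.113 for the other 1612 (SD, n = 3). Their median summit spread was 101.5 bp against 121 bp.

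The nearest was the place on chromosome 1 from 46767212 to 46767915, which ended 169 bp before a strong place with folds of 8.67, 7.46 and 7.85. Its own folds were 3.10, 3.14 and 2.999. On chromosome 12 from 58281624 to 58282029 the gap was 209 bp and the folds were 2.47, 3.07 and 3.65, beside 9.10, 5.12 and 5.56 at the strong place. On chromosome 11 from 75274267 to 75274731 the gap was 215 bp and the folds were 2.63, 3.47 and 3.04, beside 8.58, 5.43 and 5.67. At both of these strong places replicate 1 was the highest, while at their weak neighbors replicate 1 was the lowest. This contrast is not independent of the choice. Replicate 1 had the highest fold at 65.8% of the fully shared strong places. At weak places the limit on −log10 p held its fold to at most 4.44, the lowest such limit of the 3 libraries. The farthest were a pair on chromosome 15, at 22434344 to 22435632 and at 22526555 to 22526962, which were 11895 and 11803 kb from any strong place. Next came the place on chromosome 4 from 184579750 to 184580485, at 10489 kb. On chromosome 4 the folds were 3.87, 3.80 and 3.30. In the first place on chromosome 15 they were 2.33, 4.21 and 3.54, and in the second 3.83, 3.76 and 4.36. On chromosome 15, 54 places had a median gap of 610 kb, and on chromosome 13, 22 places of 745 kb, against 45.2 kb on chromosome 20 and 46.9 kb on chromosome 17. Chromosomes 15 and 13 held 43 and 23 strong places, and chromosomes 20 and 17 held 197 and 273. How the gap follows that number was not tested.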

How the data were processed

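ChIP-seq peak lists of the 3 MYC libraries were used, with groups and replicate numbers from the labels. Per the study's methods the authors aligned reads to hg19 with Bowtie2 and called peaks sample by sample with MACS2, keeping a q-value of 0.05. With DiffBind they then took peaks found in more than 1 replicate as consensus peaks, which were not used here. For the control given to MACS2, for duplicate reads and for versions, the study's text names nothing. The deposited columns hold a fold enrichment (a ratio, 1 being added above and below), a −log10 p-value, a −log10 q-value, a score that is the integer part of 10 times the latter, and a summit offset. None was scaled between replicates.

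The whole number of summit fragments and the local background were solved from fold and −log10 p, a Poisson tail. All peaks (100% in each replicate) matched within 0.001. The genome-wide level is the lowest background of a list, and a ratio to it under 1.0001 counts as equal to it. On simulated data the recovery returned the fragment number in 100% of 15000 peaks, and the merging returned 100% of 5000 places. A place takes the strongest peak of each replicate. Values are medians per replicate with mean ± SD. Sign tests, on distance and on the held-out share, were exact and two-sided over 3 replicates, whose p cannot go below 0.25. One planned on relative background is not given, because background enters the −log10 p that chose the places. The Wilson level was 95%. Places named by position are the 3 at each end of strength, distance, background (highest only), merged width and summit spread, and the 3 just outside the limit. The places, groups and lists were chosen with earlier results of these data known. The planned promoter and E-box shares were not run, because the reference used here is hg38 and no position was moved between builds. Python 3.11.15, numpy 2.4.6, scipy 1.17.1 and pandas 2.3.3 were used.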

Additional observations from a re-analysis of the deposited data

How the results depend on the processing

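The alternatives were planned, except limits scaled to the genome-wide background of each list (19.1, 14.3 and 11.6 in replicates 1, 2 and 3), which were chosen after seeing the data. With these, 1968 places were kept, 1393 of them among the 1792 (77.7% of the 1792 and 70.8% of the 1968), and the median summit spread was 122 bp. The number of places was 350 with a limit of 10 and 3487 with a limit of 20, 3269 to 4529 when a replicate was left out (most without replicate 1), and within 1.5 times of 1792 in the other 4 alternatives. Leaving out a replicate asks for peaks in 2 libraries and not 3, which by itself keeps more places. Median fold was 3.18 with a limit of 10, 3.91 with 20, 4.0005 with nothing added to fragments and background, and 3.46 to 3.88 when a replicate was left out. Median summit spread was 181 bp with a limit of 10, 97 bp with 20, 115 bp at a q-value of at most 0.01 and 100 bp with a reciprocal overlap of 50%. It was 57 to 60 bp when a replicate was left out, where the spread is over 2 summits. The median gap to a strong place was 60927 bp with strong taken from 30 and 506695 bp from 100, and 137945 to 322659 bp when a replicate was left out (largest without replicate 1). Leaving out a replicate redraws both the weak and the strong places. The difference in relative background from weak places found in all but 1 replicate ran from −0.0239 to 0.000317 when a replicate was left out, negative without replicates 1 and 2 (−0.00482). In those alternatives the comparison was with places in only 1 of the 2 libraries left. Width and relative background moved by less than 1 SD in all 9 alternatives, and the share called in a held-out replicate stayed below that of the stronger places in all 5. That last order follows largely from the split by strength. The causes were not tested. Between MYC and IgG, no paired analysis was possible because only MYC peaks were analysed, leaving no second antibody group whose replicates could be paired. Differences and sign tests between groups of places were taken within each replicate, so those comparisons are paired by replicate. The promoter and E-box alternatives were not run, for lack of a genome of the same build. At 24 to 37 fragments a summit, a peak missing from a list does not show that MYC was absent there.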
